A study of Homo sapiens with 20 samples.

Results

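The 9 genes described here encode enzymes of nucleotide and deoxynucleotide synthesis, and they were chosen by name (RRM1, RRM2, TYMS, TK1, DUT, GART, PAICS, CAD and DCTPP1) out of the 27697 genes tested. RNA-seq was performed on NGP, a neuroblastoma cell line, in 20 samples. Of these, 10 were treated with nutlin-3 at 8 µM (nutlin) and 10 with ethanol, the solvent of the drug (vehicle). Nutlin-3 is a racemic small molecule that binds MDM2 and keeps it from p53. All samples came from this cell line without a further genetic change named in the labels, and the treatment time was not given in the sources used here. The methods call the samples biological replicates of this one line, and p-values measure the spread between these cultures.

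Deoxynucleotides (dNTPs), the building blocks of DNA, are made from ribonucleotides by ribonucleotide reductase, a complex of the large subunit RRM1 with the small subunit RRM2 or its relative RRM2B. Thymidylate comes from TYMS, which methylates dUMP, or from thymidine through TK1, while DUT and DCTPP1 hydrolyse unwanted nucleotides such as dUTP. GART and PAICS carry out steps of purine synthesis, and CAD starts pyrimidine synthesis. RRM2 and TK1 are well known as genes expressed in dividing cells, and RRM2B as a target of p53.

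All 9 genes were significantly differentially expressed (SDE) and lower after nutlin, in the quasi-likelihood F-test of edgeR at 5% false discovery rate (FDR). The changes were very unequal. TK1, RRM2 and DUT fell to 11.4%, 13.1% and 14.0% of their vehicle levels, RRM1, PAICS and DCTPP1 fell to between 26.7% and 39.1%, and GART, CAD and TYMS stayed at 68.7%, 81.9% and 88.8%. In 8 of the 9, every nutlin sample was below every vehicle sample, and only TYMS overlapped. SDE genes were common in this experiment. At 5% FDR, 58.8% of all genes were SDE in either direction and 26.5% were SDE and lower. Among the 9443 mRNAs with a mean of at least 10 CPM (counts scaled to library size), an abundance that all 9 genes reach, 59.3% were SDE and lower. A lower level after nutlin was therefore frequent among genes of this abundance. A log2 fold change (LFC) of -1 or less with an SDE call was reached by 5.81% of all genes and by 6 of the 9, and nutlin samples lay below all vehicle samples in 16.6% of all genes. Among the mRNAs of at least 10 CPM, these shares were 9.48% and 42.7%. The median LFC of the 9 genes was -1.43, against 0.19 over all genes and -0.24 over the mRNAs of at least 10 CPM. In the order of LFC among those mRNAs, from the most lowered, TK1 was at position 11, RRM2 at 29, DUT at 40, RRM1 at 203, PAICS at 414 and DCTPP1 at 463, while GART, CAD and TYMS were at 2591, 4345 and 5185.

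**Figure D1:**
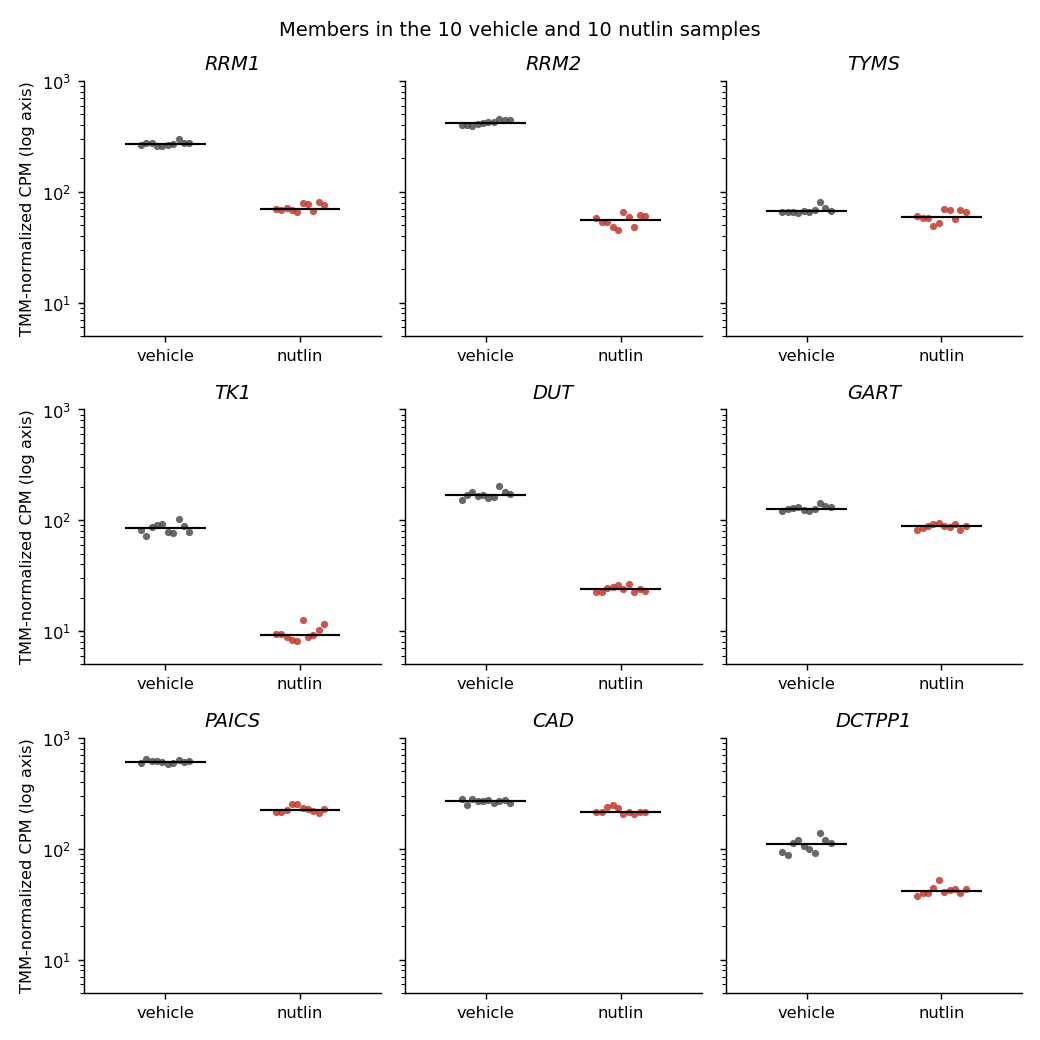
TMM-normalized CPM (log axis) of the 9 genes in each of the 10 vehicle (grey) and 10 nutlin (red) samples, with the median as a line. TK1, RRM2 and DUT show the widest gaps, whereas the vehicle and nutlin points of TYMS overlap (lowest vehicle sample 64.2, highest nutlin sample 69.9).

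The estimated counts summed to between 14455477 and 19532971 per vehicle sample and between 15078052 and 17442896 per nutlin sample. The gene MDM2, which p53 activates, checks the labels of treatment: it was at 245 ± 33.2 CPM (SD, n = 10) in vehicle and 5564 ± 382 CPM (SD, n = 10) in nutlin, with every nutlin sample higher (LFC 4.51). All 7 markers of adrenergic neuroblastoma cells were at or above 1 TPM (an abundance scaled to transcript length and library size) on average in both conditions. The summed TPM of 7 mesenchymal markers was 11.7 to 15.6 in vehicle and 36.0 to 70.2 in nutlin, the increase lying in ACTA2 (1.58 to 39.8) and COL1A1 (2.40 to 8.15), while PDGFRB (5.38 to 2.98) and LUM (2.17 to 0.651) had lower means, COL3A1 and DCN were below 1 TPM on average in both conditions and COL1A2 below 0.1 TPM. The summed TPM of 5 leukocyte markers was 1.43 to 3.47 in vehicle and 2.84 to 5.32 in nutlin, with CD3E at 0 TPM in every sample. The part of these markers in the changes below was not tested. In bulk RNA, fewer cells that express a gene and less RNA of it per cell cannot be told apart.

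The genes lie on 8 chromosomes of GRCh38 and share no locus. To show the sequence in front of genes with large and small changes, the bases before the RefSeq start site nearest to the start of the main transcript are printed for RRM1, RRM2, DUT and TYMS (RefSeq sequence on GRCh38.p14, 5′ to 3′ in the direction of the gene, within the 190 bases before the start site and outside annotated UTRs). Capitals mark the letters of CCAAT, of 1 E2F form or of 1 form of the cell cycle homology region (CHR), on either strand.
RRM1 (chr11:4094495-4094684, + strand): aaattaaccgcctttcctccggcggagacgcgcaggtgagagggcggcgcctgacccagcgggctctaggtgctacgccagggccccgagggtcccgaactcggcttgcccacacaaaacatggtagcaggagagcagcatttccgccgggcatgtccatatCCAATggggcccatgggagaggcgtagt
RRM2 (chr2:10122619-10122738, + strand): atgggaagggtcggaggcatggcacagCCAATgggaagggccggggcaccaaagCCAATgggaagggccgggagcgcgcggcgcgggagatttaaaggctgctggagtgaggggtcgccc
DUT (chr15:48332007-48332102, + strand): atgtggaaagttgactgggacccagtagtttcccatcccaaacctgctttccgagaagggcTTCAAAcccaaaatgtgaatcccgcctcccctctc
TYMS (chr18:657463-657652, + strand): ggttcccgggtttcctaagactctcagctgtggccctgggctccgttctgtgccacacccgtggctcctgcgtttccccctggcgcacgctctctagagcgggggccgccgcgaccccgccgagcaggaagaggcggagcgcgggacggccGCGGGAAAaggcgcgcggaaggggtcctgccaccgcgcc
Motif letters were counted on both strands in the whole windows, from 250 bases before to 50 after the start, in the 1 window per gene nearest to the start of its most abundant transcript. E2F letters (TTTCGCGC, TTTGGCGC, TTTCCCGC or TTTGCCGC) were in the windows of TYMS, DUT and GART, 3 of 9, and in 3.315% of all 35116 promoter windows of the reference table. CCAAT was in the windows of 5 of the 9 (RRM1, RRM2, TK1, GART and CAD) and in 34.6% of all windows. RRM2 held it 3 times on its own strand, and TK1 held it 2 times on the opposite strand. CHR letters (TTTGAA or TTCGAA) were in the windows of RRM1 and DUT and in 16.4% of all windows. The E-box CACGTG was in the window of DCTPP1 and in none of the other 8 windows counted (7.26% of all windows). However, a second RefSeq window of PAICS, around the start site at position 56435752 of chromosome 4, holds it. PAICS-201, PAICS-204 and PAICS-208, with 27.1%, 19.2% and 20.1% of the PAICS counts over all samples, start near that site. PAICS-202, which set the window counted, held 28.9%. The NRF1 core GCGCATGC was in none of the 9 (3.05% of all windows), and the GC box GGGCGG was in 7 of the 9 (45.0% of all windows). In DUT the E2F letters lie between 42 and 20 bases before the RefSeq start site, whereas DUT-202 starts 94 bases before it, so that they follow the start of this transcript. DUT-202 held 36.4% of the DUT counts over all samples. DUT-205 and DUT-207, with 32.9% and 21.8%, start further upstream, where the other RefSeq windows of DUT hold no E2F or CHR letters. DCTPP1-201, with 92.7% of the DCTPP1 counts over all samples, starts 230 bases before the RefSeq start site of its window. The E-box and the GC box of DCTPP1 lie between these starts, so that both follow the start of this transcript. No match of one motif overlapped a match of another in these 9 windows. A match is a run of letters and does not show that a factor binds.

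The subunits of ribonucleotide reductase were examined first. RRM1 (ENSG00000167325, chr11:4094707-4138932), the large subunit that holds the active and regulatory sites, was at 257 CPM in the lowest, 271 in the median and 303 in the highest vehicle sample, and at 65.9, 70.7 and 80.3 in nutlin. The ranges lay 177 CPM apart. The LFC was -1.91 ± 0.041 (SE), with an adjusted p of 5.66e-26 in edgeR.

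RRM2 (ENSG00000171848, chr2:10120698-10211725), the small subunit that supplies the radical for the reaction, was at 395, 421 and 458 CPM in vehicle and at 45.2, 55.3 and 65.3 in nutlin. No sample of one condition came near the other, and RRM2 fell 7.61-fold (LFC -2.93 ± 0.056, SE; edgeR adjusted p of 5.25e-27). The estimate for RRM2 depends on how transcripts are treated. With an offset for the effective length of each gene in each sample the LFC was -2.47, and with counts of protein_coding transcripts alone it was -3.11.

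RRM2B (ENSG00000048392), the p53-induced small subunit, moved the other way. It was at 4.98, 6.95 and 9.11 CPM in vehicle and at 84.0, 103 and 109 in nutlin. Every nutlin sample was higher, and RRM2B rose 14.4-fold (LFC 3.85 ± 0.074, SE; edgeR adjusted p of 5.44e-27).

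The 3 subunits therefore changed relative to each other within each library. Ratios of counts in a library do not depend on library scaling, and 7 ratios of paired enzymes were compared between the conditions by a two-sided permutation test with 100000 resamples. For each of the 7, the p was 2e-05, the smallest that these resamples can give, as was the p adjusted over the 7 ratios, and the log2 ratios of the conditions did not overlap. RRM2 fell 2.04-fold relative to RRM1 (difference in log2 ratio -1.03 ± 0.036, SE). In TPM summed over all transcripts of a gene, which takes transcript length into account, RRM2 fell 1.55-fold relative to RRM1 (-0.63). The ratio of RRM2B to RRM2 rose 111-fold in counts (6.80 ± 0.092) and 72.2-fold in TPM (6.17), and that of RRM2B to RRM1 rose 54.7-fold (5.77 ± 0.090). These TPM folds depend on which transcripts are summed. Over protein_coding transcripts alone, mean TPM went from 124 to 14.1 for RRM2, from 95.1 to 24.9 for RRM1 and from 2.01 to 30.3 for RRM2B. On this basis RRM2 was above RRM1 in vehicle and below it in nutlin, without overlap. The ratios over these transcripts were not tested.

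Levels of different genes can be compared only per length, and TPM was used for this purpose. RRM2 and RRM2B together summed to 245 ± 17.8 TPM (SD, n = 10) in vehicle and 81.4 ± 7.65 TPM (SD, n = 10) in nutlin. RRM2B made up 0.813% to 1.5% of this sum in the vehicle samples (median 1.21%) and 43.5% to 52.5% in the nutlin samples (median 45.5%). If only the transcripts annotated as protein_coding were summed, the share of RRM2B was 0.987% to 2.47% in vehicle and 65.1% to 73.0% in nutlin, and RRM2B exceeded RRM2 in 10 of 10 nutlin samples and in 0 of 10 vehicle samples. The rise in share is seen with both sums, but whether RRM2B exceeds RRM2 in nutlin depends on which transcripts are counted. In vehicle, the protein_coding transcripts gave 124 of the 242 TPM of RRM2.

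**Figure D2:**
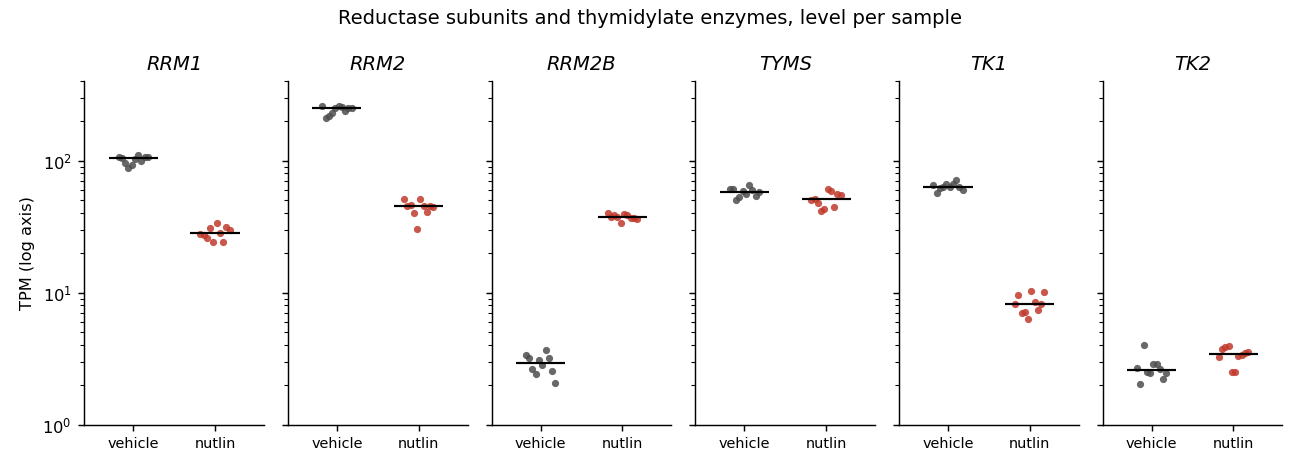
TPM (log axis) of RRM1, RRM2, RRM2B, TYMS, TK1 and TK2 in each of the 10 vehicle (grey) and 10 nutlin (red) samples, with the median as a line. RRM2 went from a mean of 242 to 43.9 TPM and RRM2B from 2.90 to 37.5 TPM, and TYMS (57.7 to 51.0 TPM) hardly moved beside TK1 (63.7 to 8.29 TPM).

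The enzymes of thymidylate supply were examined next. TK1 (ENSG00000167900, chr17:78174091-78187233), the cytosolic thymidine kinase of the salvage route, was at 71.4, 84.6 and 102 CPM in vehicle and at 8.21, 9.24 and 12.5 in nutlin. The ranges did not overlap, and TK1 fell 8.80-fold, the most of the 9 (LFC -3.14 ± 0.070, SE; edgeR adjusted p of 1.86e-25).

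TYMS (ENSG00000176890, chr18:657653-673578), thymidylate synthase, was at 64.2, 66.9 and 80.4 CPM in vehicle and at 48.8, 59.2 and 69.9 in nutlin. The ranges overlapped, and the LFC was -0.17 ± 0.055 (SE; 95% interval -0.28 to -0.06; edgeR adjusted p of 0.00907). This call depends on the scaling: it was lost with the size factors of DESeq2 (-0.12, adjusted p of 0.0656 in edgeR), and with library size alone the LFC was 0.02. At its 3′ end TYMS overlaps ENOSF1 on the opposite strand over 3261 bases, and the strand setting of the quantification was not given in the sources used here, so reads from this stretch may be divided between them. The main transcript, TYMS-203, held 79.3% of the counts in vehicle and 78.8% in nutlin.

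Relative to TK1, TYMS rose 7.79-fold (difference in log2 ratio 2.96 ± 0.058, SE). The TPM ratio of TYMS to TK1 was 0.813 to 1.07 in the vehicle samples and 5.32 to 6.85 in the nutlin samples. TK2, the mitochondrial thymidine kinase, had a higher mean after nutlin (5.94 to 7.69 CPM; LFC 0.38 ± 0.089, SE; edgeR adjusted p of 0.000538), although its samples overlapped. The ratio of TK2 to TK1 rose 11.4-fold (3.52 ± 0.106). DTYMK, which phosphorylates dTMP, fell with an LFC of -1.58 and DCK, the kinase of deoxycytidine, with an LFC of -1.41, both without overlap.

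Among the enzymes that clean the dNTP pool, DUT (ENSG00000128951, chr15:48331011-48343373), the dUTPase, was at 153, 170 and 206 CPM in vehicle and at 22.4, 24.1 and 26.5 in nutlin. It fell 7.13-fold without overlap (LFC -2.83 ± 0.048, SE), and had the smallest adjusted p of the 9 (3.52e-28 in edgeR).

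DCTPP1 (ENSG00000179958, chr16:30423615-30430030), a pyrophosphatase of dCTP and its modified forms, was at 87.5, 109 and 140 CPM in vehicle and at 37.5, 41.9 and 51.8 in nutlin. It fell 2.56-fold without overlap (LFC -1.35 ± 0.069, SE; edgeR adjusted p of 7.82e-17). Its vehicle samples were the most variable of the 9 (coefficient of variation 0.146, against 0.0313 for PAICS, the least variable). DCTPP1 lies within the span of ZNF771, which is on the opposite strand. Because DUT fell further, the ratio of DCTPP1 to DUT rose 2.80-fold (1.48 ± 0.055). SAMHD1, which degrades dNTPs, fell less, with an LFC of -0.41, and NUDT1, which removes oxidized nucleotides, fell with an LFC of -1.06.

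Both purine enzymes fell, PAICS more than GART. PAICS (ENSG00000128050, chr4:56435741-56464578), which catalyses 2 successive steps of purine synthesis, was at 580, 613 and 642 CPM in vehicle and at 209, 226 and 255 in nutlin. It fell 2.69-fold without overlap (LFC -1.43 ± 0.036, SE; edgeR adjusted p of 4.19e-24). GART (ENSG00000159131, chr21:33503931-33543491), an enzyme with 3 activities in the same route, was at 121, 128 and 143 CPM in vehicle and at 82.1, 89.5 and 94.7 in nutlin. Its samples did not overlap either, with an LFC of -0.54 ± 0.035 (SE; edgeR adjusted p of 2.85e-14). The ratio of PAICS to GART fell 1.85-fold (-0.89 ± 0.026).

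PAICS and PPAT, the amidotransferase that opens the route, start 126 bases apart on opposite strands. PPAT was at 88.7, 100.4 and 113 CPM in vehicle and at 46.7, 50.5 and 58.7 in nutlin (LFC -0.97), a smaller change than that of its neighbour. PFAS and ATIC, further enzymes of the route, fell with LFCs of -0.64 and -0.49. The synthetases of the ribose donor, PRPS1 and PRPS2, fell with LFCs of -1.47 and -1.56, and GMPS, which makes GMP, with an LFC of -1.04. IMPDH2, which precedes GMPS, did not pass the test (LFC 0.03; 95% interval -0.06 to 0.12; edgeR adjusted p of 0.604).

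CAD (ENSG00000084774, chr2:27217369-27243943), whose protein combines the first 3 enzymes of pyrimidine synthesis, was at 249.9, 271 and 280.0 CPM in vehicle and at 205, 216 and 248 in nutlin. The ranges were only 2.13 CPM apart, and the LFC was -0.29 ± 0.036 (SE; edgeR adjusted p of 3.5e-08), close to the median of -0.24 over the mRNAs of at least 10 CPM. UMPS, which completes UMP, fell with an LFC of -0.33, and CTPS1, which makes CTP, did not pass the test (LFC -0.08; 95% interval -0.20 to 0.03; edgeR adjusted p of 0.228).

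The other genes of 6 pathway lists were taken from the same fit. Of the 52 genes besides the 9, 32 were SDE and lower, 11 SDE and higher and 9 did not pass the test, and their median LFC was -0.45, with 13 at an SDE call and an LFC of -1 or less. The 32 lower genes are 61.5% of the 52, near the 59.3% of the mRNAs of at least 10 CPM, so this share is no result about the lists. Over all genes it was 26.5%, and some of the 52, such as ADSS1, XDH and CDA, were below 1 CPM on average. An SDE call with an LFC of -1 or less, seen in 13 of the 52, was reached by 9.48% of the mRNAs of at least 10 CPM and by 5.81% of all genes. These shares were not compared by a test. In dNTP supply, 9 of 12 were lower and 2 higher (RRM2B and TK2). In dNTP pool cleaning, 3 of 6 were lower and 2 higher. In purine synthesis, 8 of 11 were lower and 1 higher, IMPDH1. In pyrimidine synthesis, 2 of 4 were lower and 0 higher. In folate and one-carbon metabolism, 3 of 6 were lower and 2 higher, and SHMT1, which loads a carbon unit on folate in the cytosol, fell with an LFC of -2.31 (34.2 to 6.89 CPM on average) and MTHFD1 with an LFC of -1.23. In salvage and breakdown, 7 of 13 were lower and 4 higher. HPRT1, the purine salvage enzyme, fell with an LFC of -1.37, ADK with -1.01 and DPYD, which degrades pyrimidines, with -1.22. In dNTP supply, CMPK2 fell with an LFC of -1.63 and NME4, a nucleoside diphosphate kinase, with -1.12. Among the 11 that were higher, RRM2B had the only LFC of at least 1 in size.

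**Figure D3:**
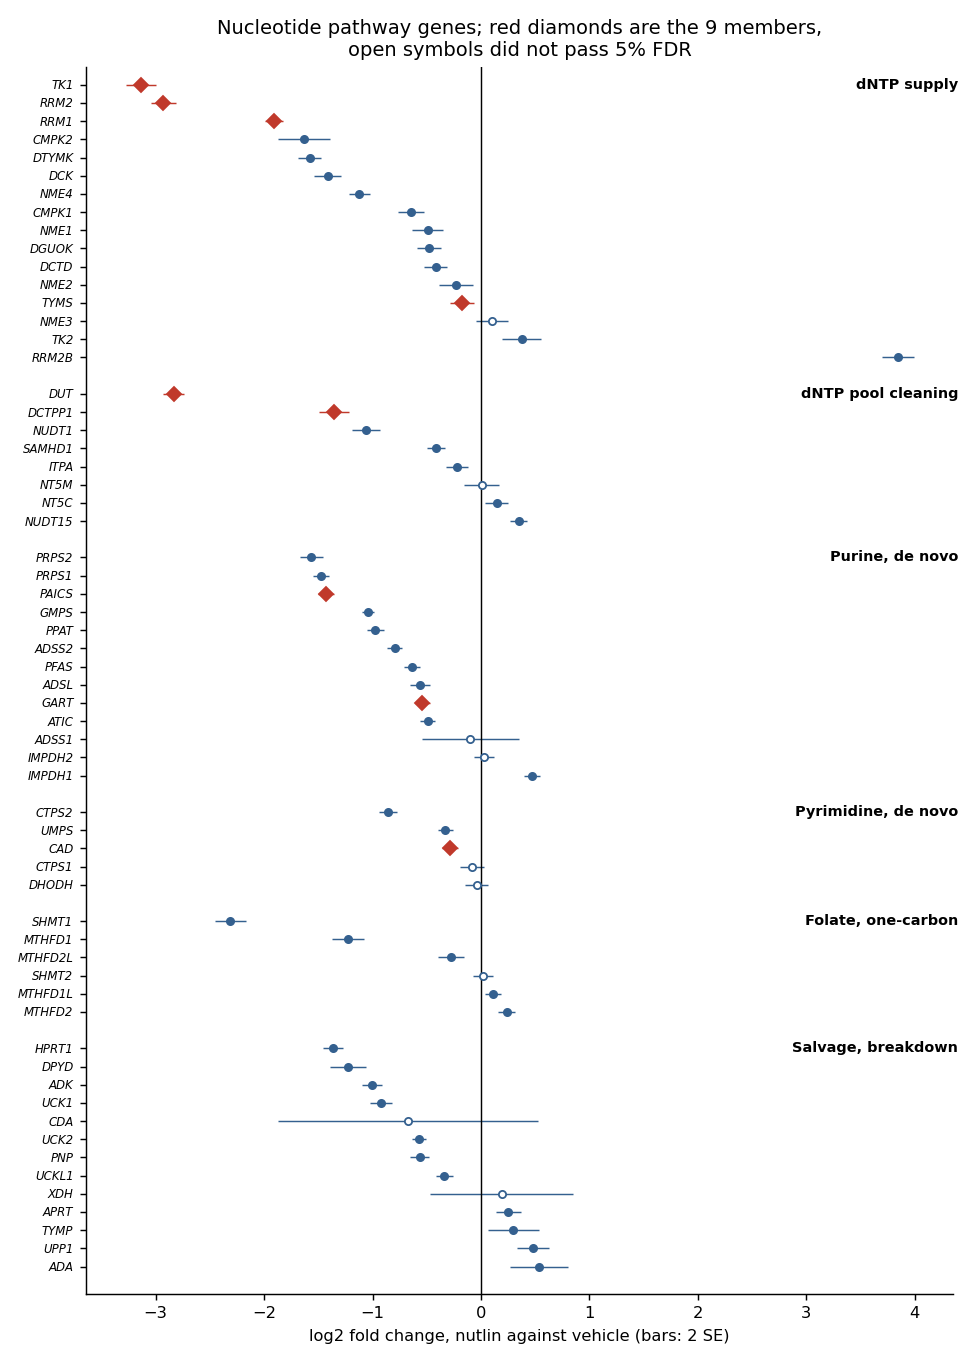
LFC of nutlin against vehicle (horizontal axis, log2 scale, bars of 2 SE) for the 9 genes (red diamonds) and the other 52 genes of 6 nucleotide pathway lists (blue circles), ordered within each list; open symbols did not pass 5% FDR. TK1, RRM2 and DUT lie furthest to the left and RRM2B furthest to the right, while TYMS and CAD lie near 0.

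The order of levels changed with these unequal folds. In vehicle, mean TPM was highest for PAICS (257), followed by RRM2 (242), DUT (239.6), DCTPP1 (111), RRM1 (101), TK1 (63.7), GART (60.1), CAD (60.02) and TYMS (57.7). Ranges of neighbours in this order overlapped except between DUT and DCTPP1 and between RRM1 and TK1. In nutlin the order was PAICS (99.0), TYMS (51.0), CAD (50.7), GART (45.1), RRM2 (43.9), DCTPP1 (42.9), DUT (35.0), RRM1 (28.4) and TK1 (8.29). Here the gaps without overlap were those between PAICS and TYMS, DCTPP1 and DUT, and RRM1 and TK1. The places of RRM2 and TYMS depend on which transcripts are summed. Over protein_coding transcripts alone, RRM2 (124 TPM) came after PAICS (246) and DUT (227) in vehicle, without overlap with DUT. In nutlin its mean over these transcripts (14.1 TPM) was above that of TK1 (8.16) only, and below those of DUT (30.6) and RRM1 (24.9). Over protein_coding transcripts alone, TYMS had the lowest mean of the 9 in vehicle (37.8 TPM), and in nutlin (33.1 TPM) it came after PAICS (91.6), DCTPP1 (42.9) and CAD (34.5). The summed mean TPM of the 9 genes was 1192 in vehicle and 404 in nutlin, and the highest mean was 4.45 times the lowest in vehicle and 11.9 times in nutlin.

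Transcripts were examined next. Of the 91 measured transcripts of the 9 genes, 48 had a mean of at least 10 counts, and of these 23 were SDE and lower and 1 was higher, in edgeR. Over all transcripts tested, 22.4% were SDE and lower. The share of a transcript within its gene (its usage) changed for 12 of the 48 at 5% FDR in the test of edgeR for differential usage, against 7.58% of all transcripts tested for usage. In simulated data this test missed most changes of small size, so a usage that did not pass is no sign of an equal share. The counts of single transcripts are estimates, since transcripts of a gene share most of their sequence.

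DUT had the clearest pattern. The nuclear and the mitochondrial dUTPase are made from different first exons of this gene, and the mitochondrial form is the longer one. DUT-202, with 164 codons, held 38.8% ± 1.91 of the DUT counts in vehicle and 19.8% ± 3.26 in nutlin (SD, n = 10 each). Its counts were 885, 1026 and 1153 in the lowest, median and highest vehicle sample and 61.1, 68.2 and 101 in nutlin (LFC -3.73 ± 0.081, SE), and its usage fell (adjusted p of 2.37e-08 in edgeR). DUT-201, with 252 codons and the upstream first exon, had counts of 9.06, 35.4 and 77.1 in vehicle and 20.2, 42.4 and 64.9 in nutlin, with an LFC of 0.34 ± 0.303 (SE; edgeR adjusted p of 0.391). The share of DUT-201 rose from 1.40% ± 0.816 to 11.9% ± 4.21, without overlap between the samples (usage adjusted p of 1.64e-09 in edgeR). DUT-204 and DUT-206, which also start upstream, showed the same pattern of shares, from 1.13% to 8.46% and from 1.54% to 8.73%, at LFCs of 0.18 and -0.28 that did not pass the test. DUT-206 is annotated as nonsense_mediated_decay and not as protein_coding. Not all transcripts with an upstream start kept their counts: DUT-205 and DUT-207 fell with LFCs of -2.96 and -2.94.

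For RRM2, the main transcript RRM2-201 held 83.6% ± 1.40 of the counts in vehicle and 71.7% ± 4.39 in nutlin (SD, n = 10 each), without overlap, and its LFC was -3.08, although its usage did not pass the test. RRM2-212, a protein_coding transcript of 339 codons, went from 51.7 to 308 counts in the vehicle samples to 0 to 9.21 counts in the nutlin samples (usage adjusted p of 2.01e-19 in edgeR). The shares of RRM2-211 and RRM2-203 rose (0.513% to 3.04% and 1.19% to 4.85%), although neither transcript was SDE and higher. RRM2-203 was SDE and lower (LFC -0.82, edgeR adjusted p of 2.07e-05), and RRM2-211 did not pass the test (LFC -0.32). Both lie outside the span of the other RRM2 transcripts named here and carry no coding sequence in the annotation. The usage of RRM2-202 and RRM2-204 also rose, with shares that overlapped and LFCs of -0.78 and -1.07 that did not pass the test. All of these transcripts are counted in the RRM2 total. The mean effective length of RRM2 was 1817 bases in vehicle and 1301 bases in nutlin.

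The other usage calls were in TK1 and RRM1. TK1-203, with an upstream start, had a share of 11.7% ± 4.19 in vehicle and 2.43% ± 3.84 in nutlin (usage adjusted p of 0.00191 in edgeR), beside TK1-201 at 84.8% and 85.8%. The shares of TK1-203 overlapped (5.70% to 21.4% in vehicle and 0 to 9.18% in nutlin), and its nutlin samples held only 0 to 13.8 counts. RRM1-214, the 1 higher transcript among the 48 (2 were higher with library size only, and 3 when transcripts with a mean of at least 1 count were tested), had counts of 0.000 to 49.2 in vehicle and 42.0 to 91.5 in nutlin (LFC 1.86 ± 0.418, SE; edgeR adjusted p of 0.000862), and its share went from 0.408% to 5.30%. RRM1-210, annotated as nonsense_mediated_decay, rose in usage as well (adjusted p of 0.0405 in edgeR). Its shares overlapped (0 to 1.37% in vehicle and 0 to 5.81% in nutlin), and its LFC of 0.34 did not pass the test. For GART, the short transcript GART-201 of 433 codons, which encodes the first activity alone, was at 19.4% ± 1.91 in vehicle and 13.3% ± 1.82 in nutlin, without overlap, but its usage did not pass the test (adjusted p of 0.0983 in edgeR).

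**Figure D4:**
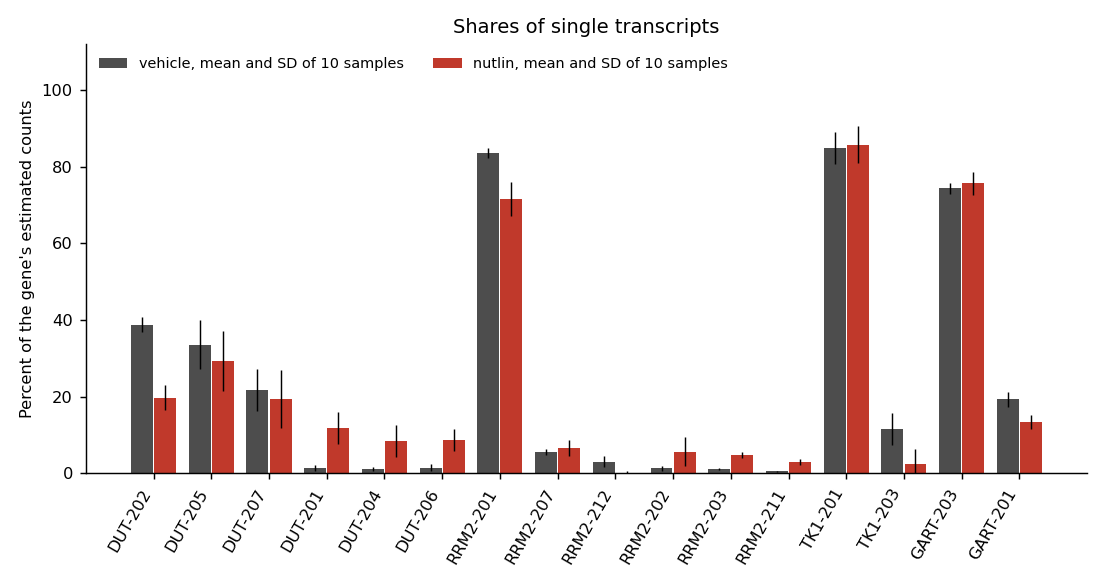
Share of the estimated counts of its gene (percent, mean with SD of 10 samples) held by single transcripts of DUT, RRM2, TK1 and GART in vehicle (grey) and nutlin (red). DUT-202 went from 38.8% to 19.8% while DUT-201 went from 1.40% to 11.9%.

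Within conditions, the 9 genes did not vary as 1 block. The deviations of log2 CPM from the condition mean were correlated over the 20 samples, as a description, and the points share libraries. Over the 36 pairs the median Pearson r was 0.23, with a range from -0.54 to 0.90. RRM1, RRM2, TYMS and TK1 varied together (r from 0.57 to 0.90 over their 6 pairs, Spearman rho from 0.43 to 0.92), and so did DUT, GART, PAICS and DCTPP1 (r from 0.48 to 0.80, rho from 0.55 to 0.78). Between both groups of 4, r was -0.39 to 0.47. TYMS, whose level differed least between the conditions, had its highest r with RRM2 (0.90) and RRM1 (0.88), among the strongly lowered genes. The r of RRM2 with TYMS was 0.79 within the vehicle samples and 0.93 within the nutlin samples, and 0.87 when the 2 samples farthest from the median of RRM2 were left out. Other pairs were weaker. Over the 6 pairs of the first group, r was 0.37 to 0.86 in vehicle and 0.67 to 0.93 in nutlin. In the second group it was 0.34 to 0.91 and 0.32 to 0.79. With the 2 samples farthest from the median of 1 gene of each pair left out, r was 0.46 to 0.87 and 0.35 to 0.70. These groups were read from the values and have no test. Vehicle replicate 10 was the highest vehicle sample for 7 of the 9 genes. The share over all genes is not given here, so this count is no result about the 9. The same sample was highest for some of the other named enzymes, such as DTYMK, ATIC and IMPDH2, and not for others, such as PPAT, PFAS and UMPS. Without vehicle replicate 10, r was 0.49 to 0.91 in the first group and 0.46 to 0.72 in the second. The r of the 9 genes with log2 total counts was -0.25 to 0.08.

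**Figure D5:**
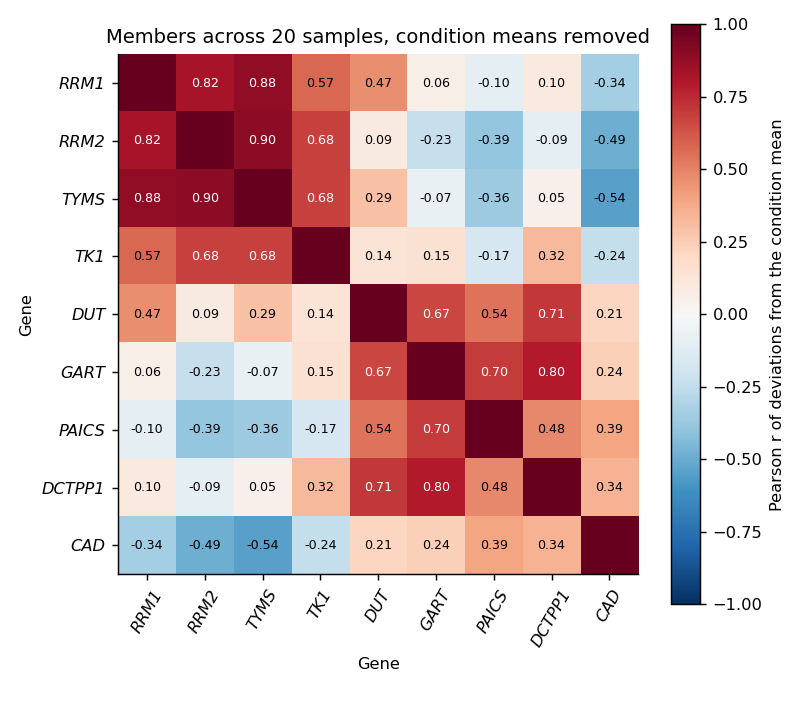
Pearson r between the 9 genes (both axes) of log2 CPM deviations from the condition mean over 20 samples, from -1 (blue) to 1 (red). RRM1, RRM2, TYMS and TK1 form one positive block and DUT, GART, PAICS and DCTPP1 another, and CAD has r between -0.54 and 0.39 with the other genes.

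Over all mRNAs of at least 10 CPM, the genes whose deviations were most like the mean profile of the 9 were SRP68 (r = 0.93), RNF34 (0.91), IDH2 (0.91), COQ5 (0.91) and NAP1L4 (0.90), over 20 samples and with a median r of 0.16 over 9434 genes. Their own LFCs ranged from -1.32 for IDH2 to 0.26 for SRP68.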

How the data were processed

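Paired-end, poly(A)-selected, stranded libraries of 20 NGP samples were quantified by the authors with kallisto 0.42.4 on GRCh38 transcripts of Ensembl release 85. The strand setting was not given in the sources used here. The deposited estimated counts per transcript are not normalized, the deposited TPM values are those of the authors' kallisto runs, and the deposited effective lengths are in bases.

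Transcripts were assigned to genes with GENCODE release 44 (191106 of 198968 matched, 96.05%). Estimated counts were summed per gene and rounded. The test was the quasi-likelihood F-test of edgeR 4.0.16 (R 4.3.3) with TMM and no term but condition, at 5% FDR (Benjamini-Hochberg) over the 27697 protein_coding and lncRNA genes that reached 1 count in both conditions. SE was the LFC divided by the root of F. CPM are TMM-normalized. Of 53607 transcripts with a mean of at least 10 counts, 48214 were tested for usage with diffSpliceDGE. Ratios used counts plus 0.5. DESeq2 1.42.0 and limma 3.58.1 were alternatives. Scripts were tested on simulated data. Plots were drawn with matplotlib 3.10.9 and permutations run with scipy 1.17.1, under Python 3.11.15 with pandas 2.3.3 and numpy 2.4.6.

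Depth was 14455477 to 19532971 counts per sample. Counting error is small only where counts are high. In the nutlin samples TK1 had 122 to 189 counts and DUT 347 to 423, and the part of counting error in their spread was not tested. Samples were grouped by their labels. The 9 genes, the pathway lists and the marker lists were chosen with earlier results of these data known. Named by rule were the 9 genes, MDM2, 11 partner enzymes, other listed genes with adjusted p below 0.05, absolute LFC of at least 1 and at least 1 CPM, transcripts of at least 5% of their gene, and the most similar genes. A further listed gene is not reported here. Other transcripts with a usage call were named after their values were seen. Vehicle and nutlin samples share 8 replicate numbers, and the labels do not say that these pair samples. The deviations of same-numbered samples from their condition means had a mean r of -0.00926 over 15168 genes, with a range from -0.0778 to 0.0951, so the samples were not treated as paired.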

Additional observations from a re-analysis of the deposited data

Results flagged for a closer look

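Of 64 groups of 10 samples checked for a sample far from the others, 5 had one, where chance gives about 1 in 20. For RRM1, vehicle replicate 10 was at 302.698 CPM and the next sample at 277.956 CPM. For TYMS, vehicle replicate 10 was at 80.3707 CPM and the next at 71.1749 CPM. For DCTPP1, nutlin replicate 6 was at 51.8275 CPM and the next at 44.4005 CPM. For UMPS, nutlin replicate 6 was at 75.1499 CPM and the next at 69.3031 CPM. For PRPS2, vehicle replicate 11 was at 25.675 CPM, below the next sample at 29.8941 CPM. Without vehicle replicate 10, the LFC of RRM1 was -1.88 and that of TYMS -0.13, and without nutlin replicate 6 that of DCTPP1 was -1.38. These fits were added after seeing the data, and all 9 genes were SDE and lower in both.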

How the results depend on the processing

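The direction and the SDE call of RRM1, RRM2, TK1, DUT, GART, PAICS, CAD and DCTPP1 held in every alternative run (DESeq2 size factors, library size only, filterByExpr, DESeq2, limma voom, the replicate block, effective length offset, protein_coding transcripts only, 1% FDR, and vehicle replicate 10 or nutlin replicate 6 left out), and so did all 7 ratios in theirs. TYMS lost its call with DESeq2 size factors (LFC -0.12, edgeR adjusted p of 0.0656), filterByExpr (-0.094), DESeq2 (-0.12) and in the 16 samples that share a replicate number without the block (-0.16), and reversed with library size only (0.021). Its LFC was -0.13 without either left-out library. Library size only moved the LFC of a gene by a median of 0.19, and the split of SDE genes from 7340 lower and 8935 higher to 5514 lower and 11560 higher. CTPS1 (0.11) and the transcript TYMS-203 (0.020) also reversed with it, and it gave 2 higher member transcripts, as against 3 with a mean of at least 1 count. IMPDH2 passed the test with library size only (0.22) and filterByExpr (0.11), CAD-201 lost its call with library size only (-0.15), and the counts over the 52 other pathway genes went from 32 lower and 11 higher to 29 lower and 16 higher there. With counts scaled to effective length and library size in place of TPM, RRM2 came first and PAICS 2nd in vehicle, and DCTPP1 was at position 4, GART at 5 and RRM2 at 6 in nutlin.

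The replicate numbers were not shown to pair samples. With the replicate block over the 16 samples that share 8 numbers, all 9 genes were SDE and lower (TYMS -0.16, edgeR adjusted p of 0.0128), while 8 were without the block in these samples. Under the block CTPS1 (0.0018), CAD-202 (-0.023) and the usage of TYMS-205 (0.0037) and DCTPP1-201 (0.0049) reversed sign, and none of these had passed the test. The ratios kept their direction over the 8 within-number differences (exact two-sided sign-flip permutation p of 0.0078, the smallest possible with 8).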
